A study of Mus musculus with 2 samples.

Results

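The integrated stress response and the unfolded protein response of the endoplasmic reticulum (ER) were examined through 39 listed mouse genes in cells of 2 liver tumour models, out of 55450 genes in the files. The genes were taken as given, by symbol, with no threshold on a measured value, and were read as 2 arms. The ATF4 arm held 21 genes: bZIP transcription factors, stress effectors and the enzymes of serine, asparagine, proline and mitochondrial one-carbon metabolism. The ER arm held 18 genes: the ER stress sensors with their transcription factors, and ER chaperones and folding factors. All 39 symbols matched. Ddit3 matched 2 Ensembl identifiers whose gene models overlap on chromosome 10, and all of its counts lay on 1 of them.

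When amino acids run short or unfolded protein builds up in the ER, kinases phosphorylate the translation factor eIF2. General translation drops while the ATF4 protein is made in greater amounts, and ATF4, often paired with C/EBP proteins, switches on genes of amino acid supply together with Ddit3 (CHOP) and Ppp1r15a (GADD34), whose product restores translation. In the ER itself the sensors PERK (Eif2ak3), IRE1 (Ern1) and ATF6 respond to unfolded protein, IRE1 by splicing the Xbp1 transcript, and raise chaperones such as BiP (Hspa5). Hepatocytes secrete most plasma proteins and carry a large ER. ATF4 is controlled mainly by translation, Xbp1 by splicing and ATF6 by cleavage, and none of these steps is seen in 3 prime transcript counts.

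Live cells from dissociated tumour tissue were measured. Tumours of the AKT1.MYC group followed transfection of liver cells in C57BL/6 mice by hydrodynamic tail vein injection of 10 ug of an Akt1 plasmid, 10 ug of a human c-Myc plasmid and 5 ug of a Sleeping Beauty transposase plasmid per mouse. In the NRAS.MYC.ND group, C57BL/6 mice received 19 ug of a human N-Ras plasmid, 1 ug of the human c-Myc plasmid and 2 ug of the transposase plasmid. Both groups share the strain, c-Myc, the transposase and a time of 14 weeks after injection, while plasmid amounts and oncogene differ together. Only transfected cells carry the plasmids, all other cells of the tumour are the host's, and how many mice went into each library is not stated in the labels.

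Each group was 1 library of droplet 3 prime single-cell RNA sequencing. After filtering, 9398 cells with 60289874 unique molecular identifiers (UMIs, counted transcript copies) remained in AKT1.MYC and 5634 cells with 38004526 UMIs in NRAS.MYC.ND. The median cell held 1987 UMIs in AKT1.MYC, beside 4240 in NRAS.MYC.ND. The libraries shared 17 cell barcodes, 15 of them among the kept cells of each. With 1 library per group no difference has a replicate check, so no p-value was made, and every interval below is a 95% interval for counting error only. UMIs were summed over the cells of a gate, a set of cells in which markers of 1 cell type stood well above those of the others, and divided by the total UMIs of that sum, in units of 1000000 UMIs (CPM). A member with fewer than 10 UMIs in the sum of both libraries was not measured, and a ratio of 2-fold or more made a call.

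Gates with at least 50 cells in both libraries were compared. The hepatocyte-lineage gate held 94 cells of AKT1.MYC and 348 of NRAS.MYC.ND, the mononuclear phagocyte gate 2376 and 1236, the endothelial gate 329 and 795, the neutrophil gate 334 and 222, and the gate of T, NK and innate lymphoid cells (T, NK and ILC) 82 and 1412. Every listed marker of these gates had UMIs in both libraries. The duct-like epithelial gate held 1869 cells of AKT1.MYC and 46 of NRAS.MYC.ND, so the epithelial cells of both kinds were also joined, a choice made after seeing the data. This epithelial gate held 2380 and 454 cells, of which 417 of AKT1.MYC and 60 of NRAS.MYC.ND had entered neither single gate. Of the kept cells, 39.3% of AKT1.MYC and 16.1% of NRAS.MYC.ND entered no gate of 1 cell type, those 417 and 60 cells included.

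Promoter sequence differed between the 2 arms, with no expression value used. In the 250 bases before the RefSeq gene start (GRCm38.p6), available for 36 of the 39 members, the ER stress response element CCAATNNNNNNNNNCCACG was found on either strand in 7 of 15 ER members, which is 46.7%, and in 0 of 21 ATF4 members, against 0.130% of 27025 genes. The C/EBP-ATF response element TGATGNAA was found in 5 of 21 ATF4 members, which is 23.8%, and in 1 of 15 ER members, against 3.91% of all genes. TGACGTG, the core of the unfolded protein response element, was found in 1 member, Hspa5, against 1.85% of all genes. Such a match describes these letters only and shows neither binding nor a cause, and a promoter without it may use other letters. The 7 ER members with the ER stress response element are shown first, each read 5′ to 3′ on the gene's strand, with the match in capitals and with Hsp90b1 holding a pair of copies.

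Hspa5 (chr2:34772020-34772048, + strand): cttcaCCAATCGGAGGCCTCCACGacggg
Hsp90b1, upstream copy (chr10:86705633-86705661, - strand): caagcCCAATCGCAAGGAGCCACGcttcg
Hsp90b1, downstream copy (chr10:86705528-86705556, - strand): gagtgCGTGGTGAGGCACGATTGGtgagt
Calr (chr8:84847070-84847098, - strand): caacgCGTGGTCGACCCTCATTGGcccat
Canx (chr11:50325795-50325823, - strand): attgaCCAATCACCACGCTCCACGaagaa
Pdia6 (chr12:17266486-17266514, + strand): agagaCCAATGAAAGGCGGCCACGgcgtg
Creld2 (chr15:88819515-88819543, + strand): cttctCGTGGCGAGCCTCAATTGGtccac
Dnajc3 (chr14:118937822-118937850, + strand): cacaaCCAATCAGCGCCAACCACGacccg

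In Calr, Creld2 and the downstream copy of Hsp90b1 the element lies in reverse. The 6 members with the C/EBP-ATF response element follow, with the match in capitals. It lies in reverse in Chac1, Nupr1, Vldlr (before the second of its listed starts) and Herpud1.

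Asns (chr6:7693214-7693243, - strand): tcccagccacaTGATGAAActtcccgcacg
Nupr1 (chr7:126625562-126625591, - strand): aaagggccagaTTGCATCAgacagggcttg
Vldlr (chr19:27216809-27216838, + strand): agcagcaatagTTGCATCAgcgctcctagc
Pycr1 (chr11:120643833-120643862, - strand): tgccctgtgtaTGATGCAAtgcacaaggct
Chac1 (chr2:119351038-119351067, + strand): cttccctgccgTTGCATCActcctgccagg
Herpud1 (chr8:94386306-94386335, + strand): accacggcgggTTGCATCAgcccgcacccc

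Some of the members described below lie as follows on several chromosomes of GRCm38, by the GENCODE vM21 gene models. Nupr1 (ENSMUSG00000030717) spans chr7:126623249-126630861 on the minus strand, Mthfd2 (ENSMUSG00000005667) chr6:83305691-83325908 on the minus strand, and Phgdh (ENSMUSG00000053398) chr3:98313170-98339990 on the minus strand. Vldlr (ENSMUSG00000024924) spans chr19:27216484-27254231 on the plus strand, Manf (ENSMUSG00000032575) chr9:106838312-106891979 on the minus strand, Hspa5 (ENSMUSG00000026864) chr2:34771970-34777547 on the plus strand and Cebpb (ENSMUSG00000056501) chr2:167688915-167690418 on the plus strand. All are protein-coding genes, and their UMIs come from the 3 prime ends of transcripts.

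Orders of levels between gates are over those with at least 50 cells in the library concerned, 7 in AKT1.MYC, beside 9 in NRAS.MYC.ND, and smaller gates can lie higher. The transcription factors were led by Cebpb, a C/EBP protein that pairs with ATF4 and also drives myeloid genes. Among these gates it was highest in neutrophils of both libraries, at 2783 CPM in AKT1.MYC and 4188 CPM in NRAS.MYC.ND, and next in mononuclear phagocytes, at 753 and 785 CPM. Its intervals in neutrophils and phagocytes were apart from those of the other gates of this size in the same library, while the 11 mast cells and basophils of NRAS.MYC.ND stood at 823 CPM (551 to 1182), across the level of the phagocytes. Atf4 itself ranged less widely than Cebpb, from 115 to 232 CPM in AKT1.MYC and from 68.2 to 156 CPM in NRAS.MYC.ND. The highest and lowest of these gates were apart by their Atf4 intervals in each library. Ddit3, the pro-apoptotic factor CHOP, was highest in neutrophils, at 117 CPM in AKT1.MYC and 53.5 CPM in NRAS.MYC.ND, although the interval of the next gate overlapped in each library. Atf5, an ATF4-related factor abundant in liver, was highest in hepatocyte-lineage cells, at 91.8 CPM in AKT1.MYC and 94.2 CPM in NRAS.MYC.ND, and in NRAS.MYC.ND the next gate stood far lower at 29.7 CPM.

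**Figure D1:**
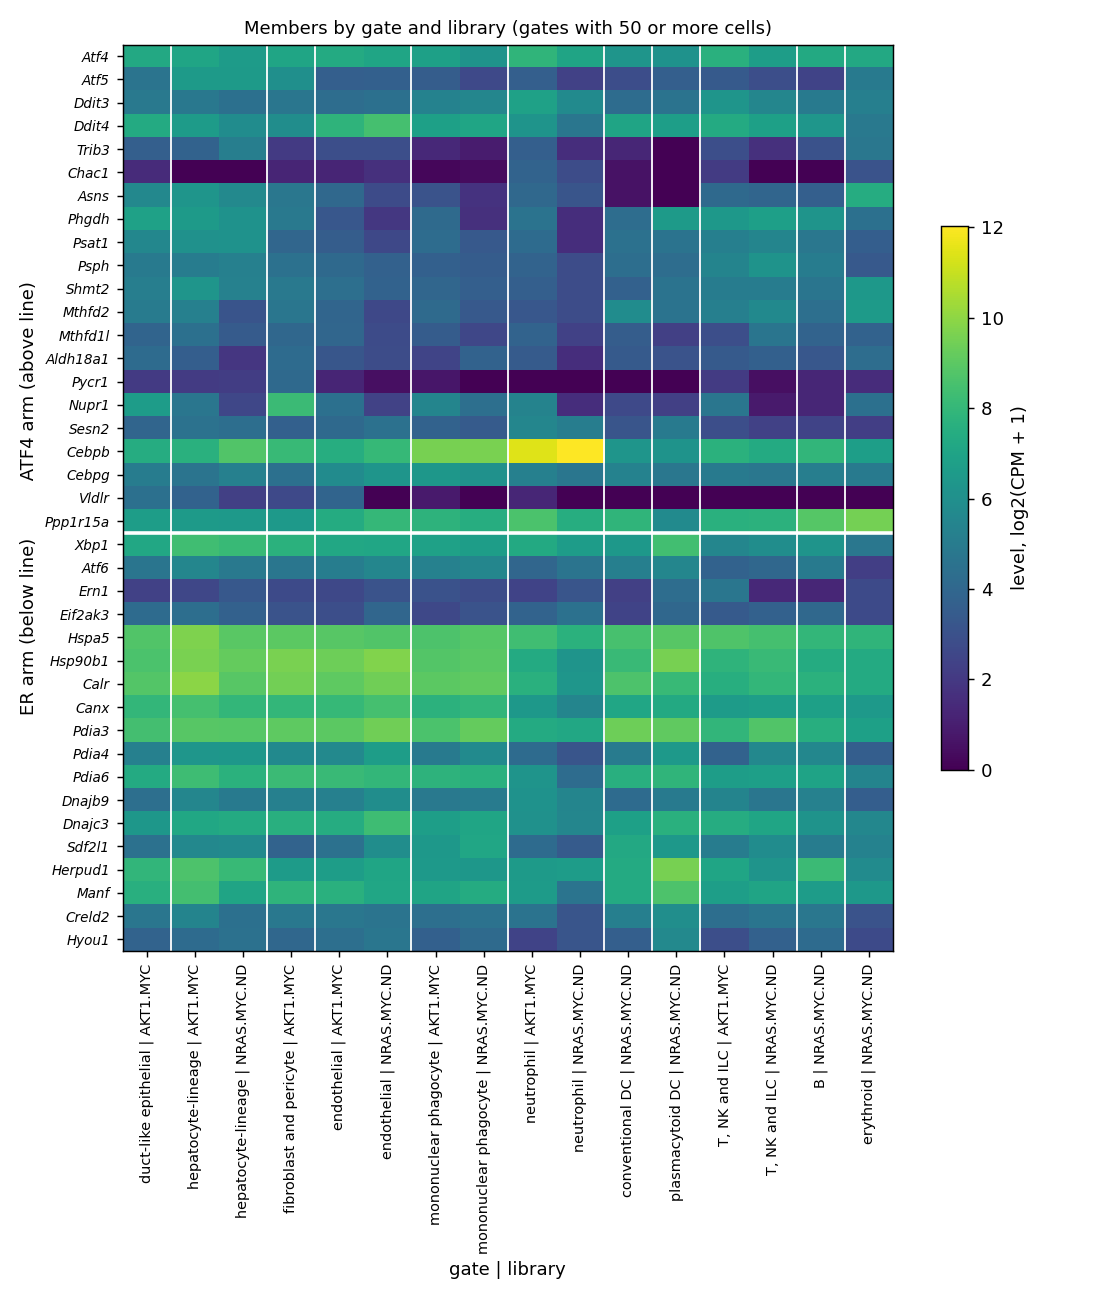
Level of each of the 39 members, as log2(CPM + 1) of the UMIs summed over a gate, in the 16 sums of gate and library with 50 or more cells; rows are members with the ATF4 arm above the white line, and columns are gates with AKT1.MYC left of NRAS.MYC.ND. Cebpb is brightest in the neutrophil columns, at 2783 CPM in AKT1.MYC and 4188 CPM in NRAS.MYC.ND, and Asns stands out in NRAS.MYC.ND erythroid cells at 174 CPM.

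The enzymes of the ATF4 arm were highest in epithelial cells for the most part in AKT1.MYC, and in erythroid cells, T, NK and ILC or hepatocyte-lineage cells in NRAS.MYC.ND. In AKT1.MYC the hepatocyte-lineage gate was highest for Asns, the asparagine synthetase, at 75.7 CPM, and for Shmt2, the mitochondrial enzyme that splits serine to glycine, at 77.3 CPM. Both were apart by their intervals from the next gate, the duct-like cells, at 47.7 and 34.9 CPM. Phgdh, the first enzyme of serine synthesis, was highest in the duct-like cells of AKT1.MYC, at 116 CPM, with hepatocyte-lineage cells at 93.4 CPM and an overlapping interval. In NRAS.MYC.ND it was highest in T, NK and ILC, at 110 CPM, followed by plasmacytoid dendritic cells at 94.7 CPM. Psph, which completes serine synthesis, was also highest in T, NK and ILC of NRAS.MYC.ND, at 71.4 CPM, apart from hepatocyte-lineage cells at 37.1 CPM. Psat1, the step between them, was highest in NRAS.MYC.ND hepatocyte-lineage cells, at 69.3 CPM, apart from T, NK and ILC at 44.0 CPM. The lowest level of Phgdh was 8.54 CPM in endothelial cells of AKT1.MYC and 1.98 CPM, 1 UMI, in neutrophils of NRAS.MYC.ND.

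Among gates of at least 50 cells, the 59 erythroid cells of NRAS.MYC.ND carried the highest level of 7 of the 21 ATF4 members in that library. No share of all genes highest in these cells is set beside that count, which describes the listed genes only. Asns stood at 174 CPM (141 to 213) there, against 49.2 CPM in hepatocyte-lineage cells, the next gate. Asns UMIs were found in 33 of the 59 cells, and without the cell that held the most the level was 158 CPM. Mthfd2, a mitochondrial one-carbon dehydrogenase, stood at 94.5 CPM in erythroid cells, against 57.1 CPM in conventional dendritic cells, and Shmt2 at 83.4 CPM, against 38.6 CPM in hepatocyte-lineage cells. Ppp1r15a, whose product reverses eIF2 phosphorylation, was at 736 CPM in erythroid cells and at 469 CPM in B cells. These 4 members were apart from the next gate by their intervals, whereas Aldh18a1, Nupr1 and Chac1 were not. Smaller gates stood higher for some of the 7, with Ppp1r15a at 965 CPM in the 11 mast cells and basophils and Chac1 at 19.7 CPM in the 46 duct-like cells, beside 7.41 CPM in erythroid cells. The serine synthesis enzymes did not share this pattern, since Phgdh stood at 20.4 CPM and Psat1 at 11.1 CPM in the same erythroid cells. AKT1.MYC had 5 erythroid cells, too few to compare.

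Nupr1, a small stress-induced nuclear protein, was a fibroblast gene in both models. In fibroblasts and pericytes it reached 298 CPM in AKT1.MYC and 372 CPM in the 44 cells of NRAS.MYC.ND, a gate too small for the order above. Duct-like cells followed in AKT1.MYC at 101 CPM, below the interval of the fibroblasts, and 1 duct-like cell held 10.1% of the 2690 Nupr1 UMIs of that gate. Pycr1, which completes proline synthesis, was likewise highest in fibroblasts and pericytes of AKT1.MYC, at 16.6 CPM, apart from hepatocyte-lineage cells at 3.22 CPM.

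In the ER arm, hepatocyte-lineage cells of AKT1.MYC were highest among gates of at least 50 cells for 12 of 18 members, among them BiP (Hspa5, 840 CPM), calreticulin (Calr, 966 CPM), calnexin (Canx, 357 CPM), Xbp1 (328 CPM), Herpud1 (411 CPM), a factor of ER-associated degradation, and Manf (348 CPM), a secreted ER protein. These 6 were apart from the next such gate by their intervals, although 9 plasma cells stood higher for Xbp1, Herpud1 and Manf. In NRAS.MYC.ND the order differed, with endothelial cells highest for 8 members and plasmacytoid dendritic cells for 6. Endothelial cells there had 355 CPM of Canx, 677 CPM of Calr and 313 CPM of Dnajc3, a co-chaperone of BiP, each apart from the next gate. Neutrophils and erythroid cells were at the low end, with Calr at 79.2 CPM in neutrophils of NRAS.MYC.ND. No share of all genes highest in a gate is set beside the counts of 12, 8 and 6 members, which describe the listed genes only.

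Several ER members were high in plasmacytoid dendritic cells, known for secreting interferon, and in plasma cells, which secrete antibody. Plasmacytoid dendritic cells are given beside conventional dendritic cells of NRAS.MYC.ND, a comparison chosen after the levels were seen. Xbp1 was 337 CPM in plasmacytoid and 84.4 CPM in conventional dendritic cells, a log2 ratio of 2.00 (1.61 to 2.37). Herpud1 was 746 and 165 CPM (2.18, 1.92 to 2.43), and Hsp90b1, the ER form of HSP90, 750 and 286 CPM (1.39, 1.15 to 1.63). Xbp1, Herpud1 and Hsp90b1 were thus higher in the plasmacytoid cells. Calr, Sdf2l1 and Pdia3 ran the other way. Calr was 273 CPM in plasmacytoid and 411 CPM in conventional cells, a log2 ratio of -0.59 (-0.96 to -0.24). Sdf2l1 was 83.3 and 153 CPM (-0.87, -1.57 to -0.25) and Pdia3 538 and 663 CPM (-0.30, -0.56 to -0.05). Of the 18 ER members, 8 were 2-fold or more higher in plasmacytoid cells and 0 in conventional cells, where 21.9% and 13.6% of all genes were, and the ER median log2 ratio was 0.80 with 0.20 for all genes. The ATF4 arm had a median of -0.11, with Phgdh at 94.7 CPM in plasmacytoid and 18.7 CPM in conventional cells and Ppp1r15a at 53.0 and 230 CPM. In the 9 plasma cells of AKT1.MYC, Xbp1 reached 1007 CPM (855 to 1178), Hsp90b1 3408 CPM, Herpud1 1104 CPM, Manf 1046 CPM and Sdf2l1, a partner of BiP, 523 CPM. Canx was at 90.4 CPM in these cells and Ern1 at 0 of 154909 UMIs, which allows up to 19.4 CPM.

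Across the 16 sums of gate and library with at least 50 cells, ER members resembled each other more than ATF4 members did. The median Pearson correlation of log2(CPM + 1) between pairs was 0.55 in the ER arm, 0.14 in the ATF4 arm and 0.03 between the arms. The genes most like Hspa5 among 13239 were Atp13a1 (0.93), Mydgf (0.92), Mlf2 (0.91) and Hsd17b12 (0.91). Those most like Ddit3 were Fgd3 (0.88), Smim4 (0.85), Krt83 (0.82), Gpr84 (0.82) and Lilrb4a (0.81). These sums share library, depth and cell types, so the correlations are descriptions. No median over all genes is set beside them. The arms also differ in abundance, since Chac1 and Pycr1 of the ATF4 arm had 0 UMIs in some sums while Hspa5 stood at 208 CPM or more. The part of counting error in the lower ATF4 median was not tested.

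Between the models, hepatocyte-lineage cells of AKT1.MYC had more transcript of the mitochondrial one-carbon enzymes Mthfd2, Shmt2 and Mthfd1l, of Aldh18a1 and of the ER members Manf, Calr and Creld2. Mthfd2 was 37.0 CPM (23 UMIs) in AKT1.MYC and 7.87 CPM (31 UMIs) in NRAS.MYC.ND, a log2 ratio, AKT1.MYC over NRAS.MYC.ND throughout, of 2.23 (1.39 to 3.06). Shmt2 was 77.3 and 38.6 CPM (1.00, 0.50 to 1.48), Mthfd1l, which releases formate, 20.9 and 9.90 CPM (1.08, 0.05 to 2.02), and Aldh18a1, the first enzyme of proline synthesis, 11.3 and 2.79 CPM (2.01, 0.41 to 3.51). The serine synthesis enzymes had intervals that span 0, with Phgdh at 93.4 and 70.3 CPM (0.41, -0.03 to 0.82), Psat1 at 66.0 and 69.3 CPM (-0.07, -0.58 to 0.41) and Psph at 32.2 and 37.1 CPM (-0.20, -0.96 to 0.48). Asns was 75.7 and 49.2 CPM (0.62, 0.13 to 1.09), and Pycr1, the other proline enzyme, 3.22 and 3.55 CPM on 2 and 14 UMIs.

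Among effectors, Nupr1 was 25.8 CPM in AKT1.MYC and 4.82 CPM in NRAS.MYC.ND (2.42, 1.36 to 3.46), and Vldlr, a lipoprotein receptor induced by ATF4, 12.9 and 3.81 CPM (1.76, 0.31 to 3.09). Trib3, a pseudokinase that dampens ATF4 signalling, ran the other way at 12.9 and 34.8 CPM (-1.43, -2.67 to -0.41). Cebpb did too, at 200 CPM in AKT1.MYC and 435 CPM in NRAS.MYC.ND (-1.12, -1.40 to -0.86). The other factors and effectors lay within 2-fold. Atf4 was 132 and 95.4 CPM (0.47, 0.11 to 0.82), Ddit3 27.4 and 20.6 CPM (0.41, -0.43 to 1.18) and Ddit4, an inhibitor of mTORC1, 96.6 and 57.4 CPM (0.75, 0.32 to 1.17). Sesn2, another brake on mTORC1, was 22.5 and 19.0 CPM (0.24, -0.70 to 1.08), and Cebpg, the C/EBP partner of ATF4, 24.2 and 36.8 CPM (-0.61, -1.48 to 0.16). The intervals of Ddit3, Sesn2 and Cebpg spanned 0. Atf5 at 91.8 and 94.2 CPM (-0.04, -0.47 to 0.37) and Ppp1r15a at 91.8 and 89.4 CPM (0.04, -0.39 to 0.45) were closest to even. Chac1, a glutathione-degrading enzyme, had 0 UMIs in this gate of either library, which allows up to 4.83 CPM in AKT1.MYC and 0.762 CPM in NRAS.MYC.ND.

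In the ER arm of the same cells, Manf was 348 CPM in AKT1.MYC and 130 CPM in NRAS.MYC.ND (1.42, 1.18 to 1.65), the one ER member whose interval lay wholly past 2-fold, as Mthfd2 and Nupr1 did in the ATF4 arm. Over all genes, such intervals made up 2.93% higher in AKT1.MYC, beside 1.66% higher in NRAS.MYC.ND. Calr was 966 and 478 CPM (1.02, 0.88 to 1.15) and Creld2, an ER stress-induced folding factor, 41.9 and 20.8 CPM (1.01, 0.31 to 1.66). Hspa5 stood below the call at 840 and 487 CPM (0.79, 0.64 to 0.93), and so did Pdia6, a disulfide isomerase, at 314 and 204 CPM (0.62, 0.39 to 0.85). Others were close to even, such as Pdia3 at 485 and 468 CPM (0.05, -0.13 to 0.23) and Sdf2l1 at 48.3 and 53.8 CPM (-0.16, -0.76 to 0.40). Among the large lectin and HSP90 chaperones, Canx was 357 and 248 CPM (0.53, 0.31 to 0.74) and Hsp90b1 786 and 582 CPM (0.43, 0.29 to 0.57), and Herpud1 was 411 and 279 CPM (0.56, 0.35 to 0.75). The co-chaperones Dnajb9, at 45.1 and 29.4 CPM (0.61, -0.04 to 1.22), and Dnajc3, at 145 and 164 CPM (-0.18, -0.52 to 0.14), had intervals that reach 0 or beyond it, as did Pdia4, at 78.9 and 81.7 CPM (-0.05, -0.52 to 0.39), and Hyou1, the nucleotide exchange factor of BiP, at 17.7 and 21.3 CPM (-0.27, -1.32 to 0.65). The sensors and their factors were low or close together. Xbp1 was 328 and 278 CPM (0.24, 0.02 to 0.46), Atf6 45.1 and 27.7 CPM (0.70, 0.05 to 1.31), Eif2ak3 19.3 and 12.4 CPM (0.64, -0.41 to 1.57) and Ern1 4.83 and 8.88 CPM (-0.88, -3.22 to 0.79). A single cell with 50489 UMIs held 16.8% of the Calr, 13.8% of the Hspa5 and 11.1% of the Manf UMIs of AKT1.MYC, and without it these stood at 875, 789 and 336 CPM.

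Counted over both arms in hepatocyte-lineage cells, 6 of 20 measured ATF4 members were called higher in AKT1.MYC, beside 2 in NRAS.MYC.ND, where 12.1% and 11.9% of all 11713 measured genes were. Of 18 ER members, 3 were called higher in AKT1.MYC, beside 0 in NRAS.MYC.ND. The median log2 ratio was 0.41 in the ATF4 arm and 0.54 in the ER arm, against 0.11 over all genes. When cells were classed by Leiden clusters in place of marker gates, the ER median turned to -0.39. That class holds 434 cells of AKT1.MYC, 389 of them from 1 cluster with 4 hepatocyte-lineage and 3 other markers raised. With every cell thinned to 1000 UMIs the ATF4 median was -0.13 and the Shmt2 ratio -0.093, and with equal weight per cell that of Mthfd1l was -0.027.

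Epithelial markers differed with the hepatocyte-lineage gate as well. Duct-like markers summed to 6613 CPM in AKT1.MYC and 3379 CPM in NRAS.MYC.ND, and hepatocyte-lineage markers to 46591 and 94546 CPM. Among cells with no UMI of Epcam, Krt7 or Krt19, 41 of AKT1.MYC and 324 of NRAS.MYC.ND, Mthfd2 had a log2 ratio of 1.40, Nupr1 of 3.14 and Manf of 1.19, while Calr was below the call at 0.66 and Cebpb was even at 0.012. The 10 early-response genes, which dissociation can induce, summed to 9498 CPM in AKT1.MYC and 4420 CPM in NRAS.MYC.ND in the full gate. The part of either difference in the result was not tested.

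Over the joined epithelial gate, where 1869 of the 2380 AKT1.MYC cells were duct-like, the 2 arms lay further apart. Nupr1 was 88.2 CPM in AKT1.MYC and 10.1 CPM in NRAS.MYC.ND (3.13, 2.75 to 3.54), Mthfd2 31.2 and 6.53 CPM (2.26, 1.78 to 2.77), Aldh18a1 17.0 and 4.94 CPM (1.78, 1.24 to 2.39) and Vldlr 20.4 and 6.00 CPM (1.76, 1.27 to 2.31). These 4 intervals lay wholly past 2-fold, where 5.84% of all genes did so higher in AKT1.MYC. Phgdh was 113 and 65.3 CPM (0.79, 0.63 to 0.95), while Asns, Psat1, Psph, Shmt2, Mthfd1l and Pycr1 lay between -0.19 and 0.39. Higher in NRAS.MYC.ND were Atf5, at 24.3 CPM in AKT1.MYC and 73.3 CPM in NRAS.MYC.ND (-1.59, -1.76 to -1.42), Trib3, at 10.4 and 29.1 CPM (-1.49, -1.76 to -1.21), and Cebpb, at 170 and 395 CPM (-1.21, -1.28 to -1.14), with all 3 intervals past 2-fold, where 7.53% of all genes did so higher in NRAS.MYC.ND. Without cells holding a duct gene UMI the Cebpb ratio was 0.43. Ddit4, at 152 and 74.5 CPM (1.03, 0.88 to 1.18), was called as well, and Atf4 was 148 and 93.9 CPM (0.66, 0.53 to 0.79).

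No ER member was called higher in AKT1.MYC in this joined gate, and 3 of 18 were higher in NRAS.MYC.ND, against 15.8% and 14.1% of 16879 genes. Pdia4, a disulfide isomerase, was 37.9 CPM in AKT1.MYC and 89.0 CPM in NRAS.MYC.ND (-1.23, -1.38 to -1.08), Sdf2l1 23.2 and 47.8 CPM (-1.05, -1.25 to -0.84), and Ern1 3.93 and 9.36 CPM (-1.25, -1.72 to -0.76). Xbp1 was 152 and 251 CPM (-0.72, -0.81 to -0.64) and Dnajc3 84.1 and 160 CPM (-0.93, -1.03 to -0.81), while Manf was 195 and 133 CPM (0.55, 0.44 to 0.66). Hspa5 was nearly even at 441 and 471 CPM (-0.10, -0.16 to -0.04). In the ATF4 arm 5 of 21 members were called higher in AKT1.MYC, beside 3 in NRAS.MYC.ND. The median was 0.08 in the ATF4 arm and -0.39 in the ER arm, beside 0.17 over all genes.

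Within AKT1.MYC, duct-like cells had less ER transcript than the 94 cells of the hepatocyte-lineage gate. Of 18 ER members, 0 were 2-fold or more higher in duct-like cells and 5 in hepatocyte-lineage cells, against 13.7% and 12.1% of 13434 genes, with an ER median log2 ratio, duct-like over hepatocyte-lineage, of -0.87 beside 0.13 over all genes. All 18 ratios were below 0, with no share of all genes below 0 set beside that count. Of the 94 cells, 52 lay within 2 times the margin of the gate, as did 931 of the 1869 duct-like cells. The single cell with much of the Calr and Hspa5 counts, described above, is among the 94. With Leiden classes the ER median of the hepatocyte-lineage cells against NRAS.MYC.ND turned to -0.39. Calr was 444 CPM in duct-like cells and 966 CPM in hepatocyte-lineage cells (a log2 ratio of -1.12), Xbp1 148 and 328 CPM (-1.15, -1.36 to -0.94), and Hspa5 434 and 840 CPM (-0.95, -1.08 to -0.83). The ATF4 arm had a median of -0.08, with Nupr1 at 101 CPM in duct-like and 25.8 CPM in hepatocyte-lineage cells (1.97, 1.27 to 2.78) and Atf5 at 24.0 and 91.8 CPM (-1.94, -2.33 to -1.52). The joined gate of AKT1.MYC holds mostly such duct-like cells, and their part in its lower ER median was not tested.

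**Figure D2:**
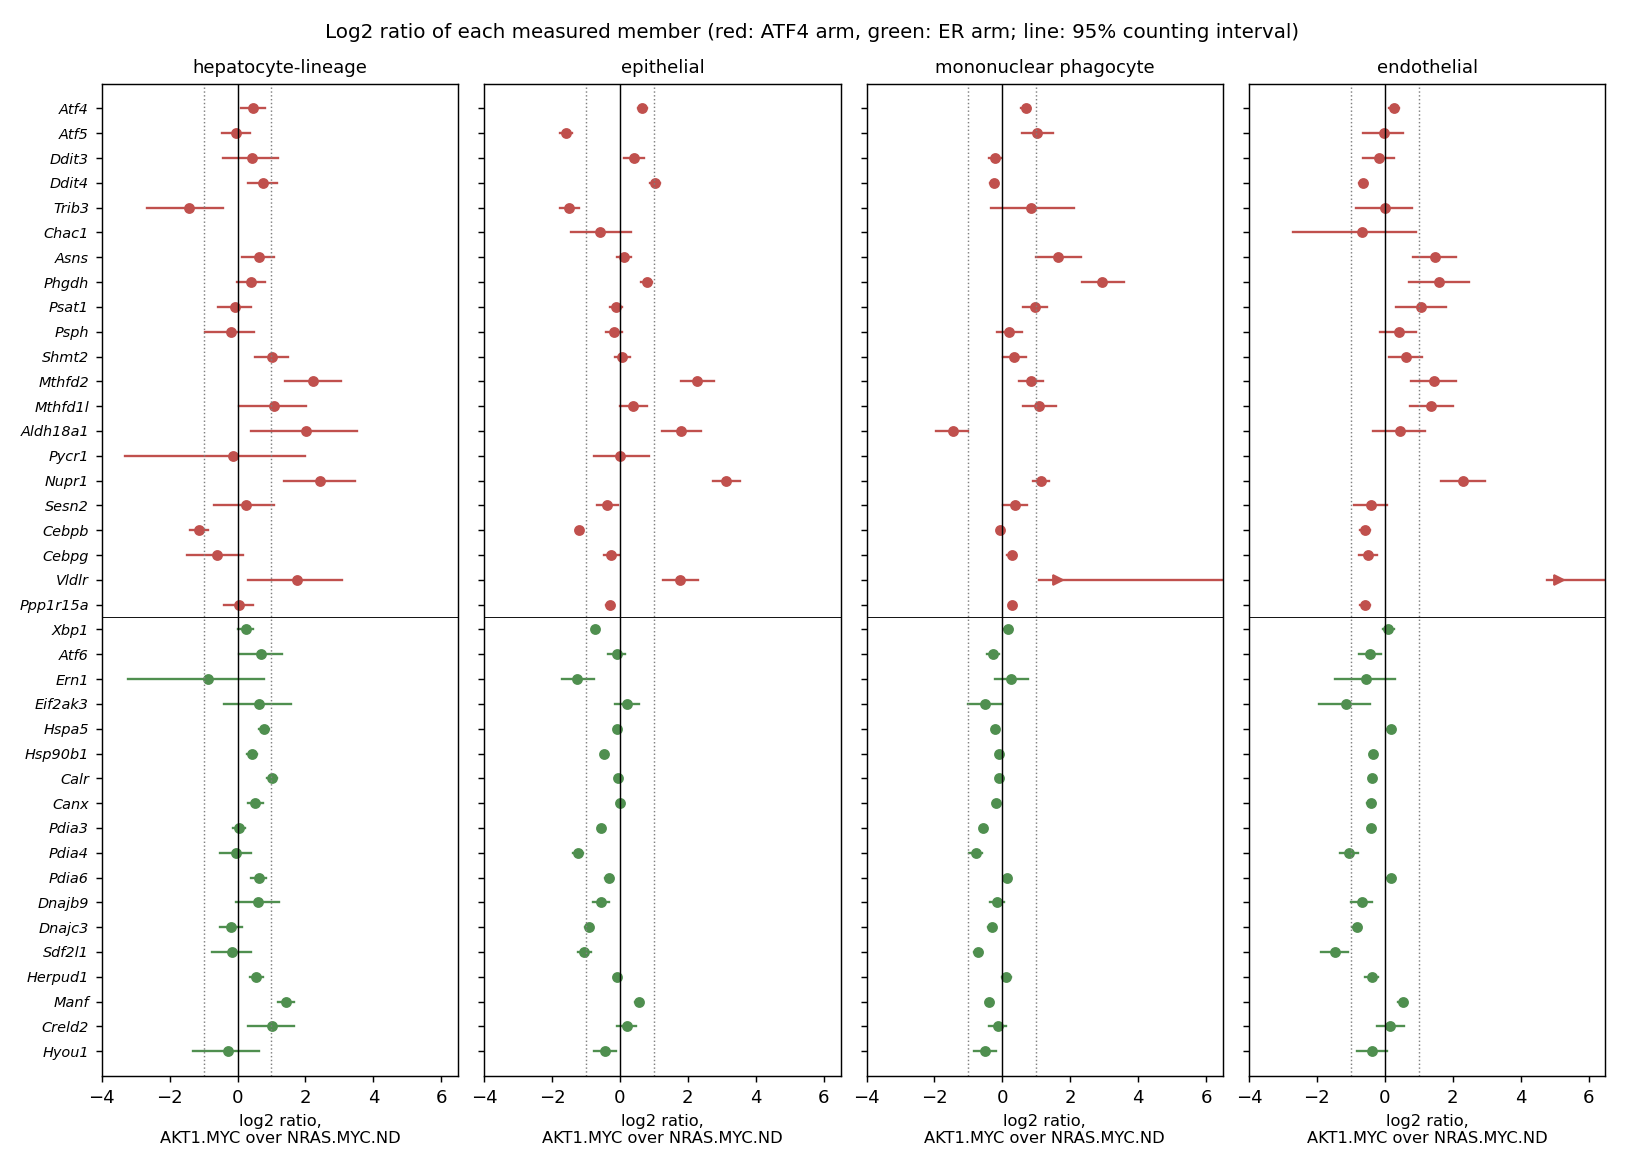
Log2 ratio of each measured member, AKT1.MYC over NRAS.MYC.ND, in 4 gates; points are ratios of CPM, lines are 95% counting intervals, triangles are lower bounds where NRAS.MYC.ND had 0 UMIs, and dotted lines mark 2-fold. Nupr1 lies right of the upper 2-fold line in all 4 panels, and the ER members (green) lie mostly right of 0 in hepatocyte-lineage cells and mostly left of it elsewhere.

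In mononuclear phagocytes Nupr1, Mthfd1l and Atf5 were called higher in AKT1.MYC, as were Phgdh, Asns and Vldlr at the level of free RNA, and no ER member was called. Atf4 was 115 CPM in AKT1.MYC and 71.6 CPM in NRAS.MYC.ND (0.69, 0.56 to 0.81), below the call. Nupr1 was 43.1 and 19.7 CPM (1.13, 0.90 to 1.36), Mthfd1l 10.4 and 4.88 CPM (1.09, 0.62 to 1.58), and Atf5 10.6 and 5.24 CPM (1.02, 0.57 to 1.49), of which free epithelial RNA would give 3.38 and 3.28 CPM. Just under the call were Psat1 at 17.9 and 9.14 CPM (0.97, 0.62 to 1.32) and Mthfd2 at 16.6 and 9.32 CPM (0.84, 0.49 to 1.19). Aldh18a1 was the called exception in the other direction, with 4.57 CPM in AKT1.MYC and 12.6 CPM in NRAS.MYC.ND (-1.46, wholly past 2-fold from -1.94 on), although its ratio was -0.17 with cells thinned to 1000 UMIs. Mthfd1l stood at -0.066 under the same thinning. Cebpb, Cebpg and Ppp1r15a were close together, at 753 and 785 CPM (-0.06, -0.10 to -0.02), 81.3 and 67.4 CPM (0.27, 0.13 to 0.41) and 218 and 178 CPM (0.29, 0.21 to 0.38). Ddit3 at 39.2 and 45.6 CPM (-0.22, -0.40 to -0.04) and Ddit4 at 114 and 136 CPM (-0.26, -0.36 to -0.15) were slightly lower in AKT1.MYC. Psph at 12.0 and 10.4 CPM (0.20, -0.16 to 0.57), Shmt2 at 14.5 and 11.4 CPM (0.35, 0.01 to 0.69) and Sesn2 at 12.8 and 9.94 CPM (0.37, 0.01 to 0.73) were near even.

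Phgdh showed the widest difference among phagocyte members, at 17.0 CPM (204 UMIs) in AKT1.MYC and 2.22 CPM (25 UMIs) in NRAS.MYC.ND (2.93, 2.33 to 3.60). Free epithelial RNA, scaled by the epithelial markers found in the same cells, would give 15.7 CPM in AKT1.MYC and 2.92 CPM in NRAS.MYC.ND, so Phgdh was at that level in both libraries. Asns, at 7.40 and 2.40 CPM (1.63, 0.99 to 2.31), was also at it, with 6.40 and 1.90 CPM, and the 10 Vldlr UMIs of AKT1.MYC, beside 0 in NRAS.MYC.ND, were below it. At these levels none of the 3 is read as expression by phagocytes. In all, 8 of 21 ATF4 members in AKT1.MYC, beside 7 in NRAS.MYC.ND lay within 3-fold of this level, against 2 and 0 of 18 ER members.

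Of 19 measured ATF4 members in phagocytes, 6 were called higher in AKT1.MYC, beside 1 in NRAS.MYC.ND, where 16.5% and 9.75% of 15050 genes were, and 0 of 18 ER members were called either way. Of the 12 ATF4 members over 3-fold above the free RNA level in both libraries, 2 were called, Mthfd1l and Nupr1, a share close to that over all genes. That level counts epithelial RNA only, while Nupr1 was highest in fibroblasts and pericytes of AKT1.MYC. The Nupr1 ratio in phagocytes stayed past 2-fold in 10 of 12 alternatives of processing, with a lowest value of 0.62. The median log2 ratio was 0.68 in the ATF4 arm, 0.32 with members near the free RNA level left out, and -0.20 in the ER arm, against 0.09 over all genes. The most abundant chaperones were close, with Calr at 503 CPM in AKT1.MYC and 543 CPM in NRAS.MYC.ND (-0.11, -0.16 to -0.06) and Hsp90b1 at 454 and 488 CPM (-0.10, -0.16 to -0.05). Hspa5 was 405 and 467 CPM (-0.21, -0.26 to -0.15), Manf 130 and 169 CPM (-0.38, -0.48 to -0.29), Pdia3 391 and 585 CPM (-0.58, -0.64 to -0.53) and Pdia6 215 and 196 CPM (0.14, 0.05 to 0.22). The lowest ER ratios were those of Pdia4, at 30.3 and 52.5 CPM (-0.79, -0.98 to -0.60), and Sdf2l1, at 83.8 and 139 CPM (-0.73, -0.84 to -0.61). The sensor genes were low, with Ern1 at 7.15 and 5.95 CPM (0.27, -0.21 to 0.75), Eif2ak3 at 5.15 and 7.37 CPM (-0.52, -1.01 to -0.02) and Atf6 at 37.7 and 45.6 CPM (-0.27, -0.46 to -0.09), and Xbp1 was 118 and 104 CPM (0.17, 0.06 to 0.29). Early-response genes summed to 16743 CPM in AKT1.MYC and 9063 CPM in NRAS.MYC.ND, and their part in the ATF4 median was not tested.

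A single phagocyte of NRAS.MYC.ND held 660 Hspa5 UMIs among its 9835, or 6.71% of its transcripts. That cell gave 12.6% of the gate's Hspa5 UMIs, and without it the level in NRAS.MYC.ND was 408 CPM in place of 467 CPM, beside 405 CPM in AKT1.MYC. The 17 other ER members made up 1.99% of its UMIs. Over cells with at least 1000 UMIs, 0 of 6922 in AKT1.MYC and 2 of 5337 in NRAS.MYC.ND had more than 1% Hspa5, where the median cell had 0.0351% and 0.0317%.

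Endothelial cells of AKT1.MYC had higher levels of amino acid and one-carbon enzymes than those of NRAS.MYC.ND. All 8 measured enzymes had a ratio above 0 and 5 were called higher in AKT1.MYC, where 9.54% of 13990 genes were. They were Asns at 15.7 CPM in AKT1.MYC and 5.67 CPM in NRAS.MYC.ND (1.47, 0.84 to 2.10), Mthfd2 at 14.0 and 5.16 CPM (1.44, 0.78 to 2.11), Mthfd1l at 14.7 and 5.67 CPM (1.37, 0.73 to 2.01), Psat1 at 10.6 and 5.03 CPM (1.07, 0.35 to 1.79) and Phgdh at 8.54 and 2.84 CPM (1.59, 0.70 to 2.48). Each rests on 22 to 46 UMIs per library. Free epithelial RNA would give 10.3 and 2.33 CPM of Phgdh, at or near what was measured, and 4.44 and 1.88 CPM of Psat1, within 3-fold of it, but 4.22 and 1.51 CPM of Asns, 1.22 and 0.365 CPM of Mthfd1l and 2.86 and 0.233 CPM of Mthfd2. Epithelial markers stood at 9.15% of their epithelial level in AKT1.MYC, beside 3.56% in NRAS.MYC.ND.

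Vldlr was detected in endothelial cells of AKT1.MYC and not in those of NRAS.MYC.ND. It had 40 UMIs in 31 of 329 cells of AKT1.MYC, 13.7 CPM (9.76 to 18.6), and 0 UMIs of 7753746 in 795 cells of NRAS.MYC.ND, which allows up to 0.387 CPM. Set against that limit of 3 counts, the level in AKT1.MYC was 35.3-fold higher, a log2 ratio of 5.14 whose interval began at 4.78. Free epithelial RNA would give 1.87 CPM of Vldlr in AKT1.MYC. No single cell held more than 3 of the 40 UMIs. Nupr1 was 20.8 CPM in AKT1.MYC and 4.26 CPM in NRAS.MYC.ND (2.29, 1.66 to 2.95), with 8.07 and 0.358 CPM from free RNA.

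The remaining measured ATF4 members of endothelial cells were within 2-fold, on either side. Shmt2 was 19.8 CPM in AKT1.MYC and 12.9 CPM in NRAS.MYC.ND (0.62, 0.13 to 1.10) and Atf4 160 and 133 CPM (0.27, 0.11 to 0.43). Ddit4, highest in endothelial cells of both libraries among gates of at least 50 cells, was 230 CPM in AKT1.MYC and 355 CPM in NRAS.MYC.ND (-0.63, -0.75 to -0.51), Cebpb 178 and 265 CPM (-0.57, -0.72 to -0.44) and Ppp1r15a 171 and 255 CPM (-0.58, -0.72 to -0.44). The ER arm was lower on the whole, with 13 of 18 ratios below 0. Sdf2l1 was 21.2 CPM in AKT1.MYC and 58.2 CPM in NRAS.MYC.ND (-1.46, -1.87 to -1.07), the PERK gene Eif2ak3 6.49 and 14.4 CPM (-1.15, -1.94 to -0.45), Pdia4 49.2 and 102 CPM (-1.05, -1.32 to -0.80) and Dnajc3 176 and 313 CPM (-0.83, -0.97 to -0.69). Manf was again on the other side, at 200 and 139 CPM (0.52, 0.38 to 0.67).

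In endothelial cells 7 of 20 ATF4 members were called higher in AKT1.MYC, beside 0 in NRAS.MYC.ND, against 9.54% and 13.1% of 13990 genes, and 0 and 3 of 18 ER members. Of the 16 ATF4 members over 3-fold above the free RNA level in both libraries, 3 were called, Asns, Mthfd2 and Mthfd1l. The medians were 0.34 in the ATF4 arm and -0.39 in the ER arm, beside -0.13 over all genes. The ATF4 median was -0.26 with cells thinned to 1000 UMIs and -0.01 with members near the free RNA level left out. Other listed one-carbon genes, taken from a list of 18, were called higher in AKT1.MYC in 7 of 17 measured and in NRAS.MYC.ND in 0. Gcsh, a subunit of the glycine cleavage system, was 78.2 and 28.2 CPM (1.47, 1.20 to 1.74). Some calls had few UMIs in AKT1.MYC and NRAS.MYC.ND: Sds 5 and 5 (1.40, -0.71 to 3.52), Sdsl 9 and 4, and Gldc 12 and 11. Free RNA levels are not given for this list.

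**Figure D3:**
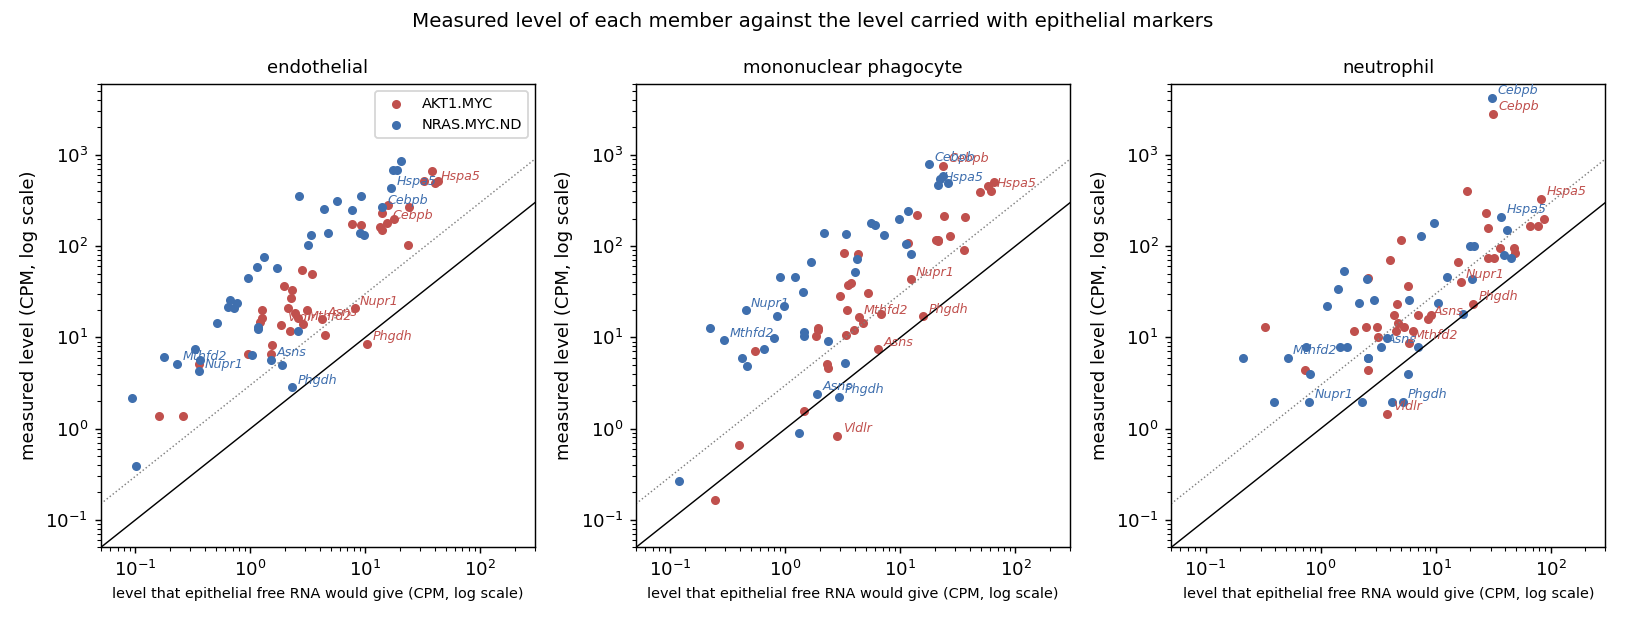
Measured level of each member with counts (vertical axis, CPM, log scale) against the level that epithelial RNA carried over with epithelial markers would give (horizontal axis, CPM, log scale) in endothelial cells, mononuclear phagocytes and neutrophils, AKT1.MYC in red and NRAS.MYC.ND in blue; the solid line marks equality and the dotted line 3-fold above it. Phgdh lies on or near the solid line in the phagocytes of both libraries, at 17.0 CPM measured and 15.7 CPM carried over in AKT1.MYC, while endothelial Vldlr of AKT1.MYC, at 13.7 and 1.87 CPM, lies above the dotted line.

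Neutrophils had the highest median ratio of each arm among the compared gates but few counts, and all genes moved with them. Of 16 measured ATF4 members, 11 were called higher in AKT1.MYC, beside 0 in NRAS.MYC.ND, and of 16 ER members 6 and 0, where 32.2% and 10.5% of 7547 genes were. The medians were 1.13 in the ATF4 arm and 0.74 in the ER arm, against 0.42 over all genes. Ddit3 was 117 CPM in AKT1.MYC and 53.5 CPM in NRAS.MYC.ND (1.13, 0.49 to 1.82), Ppp1r15a 400 and 180 CPM (1.15, 0.80 to 1.51), Pdia6 73.9 and 17.8 CPM (2.05, 1.02 to 3.26) and Manf 95.6 and 23.8 CPM (2.01, 1.11 to 3.03). Free epithelial RNA would give 32.1 and 17.2 CPM of Pdia6 and 36.4 and 10.5 CPM of Manf. Both members thus lay within 3-fold of that level in both libraries. The neutrophils' own markers took 104136 CPM in AKT1.MYC and 277226 CPM in NRAS.MYC.ND, and 11 of 21 ATF4 and 9 of 18 ER members in AKT1.MYC were within 3-fold of the free RNA level. Cebpb went the other way, at 2783 and 4188 CPM (-0.59, -0.68 to -0.50), and Slc7a11, the cystine transporter and an ATF4 target outside the members, at 907 and 2031 CPM (-1.16, -1.31 to -1.02). The ratios of Atf6, Eif2ak3 and Herpud1 were below 0 as well, with intervals that spanned 0.

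The T, NK and ILC gate rests on 82 cells and 311699 UMIs in AKT1.MYC, and most ratios there were wide. Of 18 measured ATF4 members 3 were past 2-fold in either direction, and of 18 ER members 2, where 27.6% of 10803 genes were. The median log2 ratio was 0.15 in the ATF4 arm and -0.30 in the ER arm, beside -0.06 over all genes. Ern1 was 25.7 CPM in AKT1.MYC (8 UMIs in 7 cells) and 1.61 CPM in NRAS.MYC.ND (8 UMIs in 8 of 1412 cells), a log2 ratio of 3.99 (2.38 to 5.60). Nupr1 had 8 UMIs in AKT1.MYC, beside 4 in NRAS.MYC.ND (4.99, 3.09 to 7.17), and free epithelial RNA would give 11.8 of its 25.7 CPM in AKT1.MYC. Pdia4 was 12.8 and 48.0 CPM (-1.90, -3.79 to -0.53), and Mthfd1l 6.42 and 24.4 CPM (-1.93, -4.99 to -0.04) on 2 and 121 UMIs.

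The serine, asparagine and one-carbon enzymes were, by their median, higher in cycling cells within a library, where the models do not enter. Cells with at least 2 of 8 mitotic genes detected were set against cells with none. In T, NK and ILC of NRAS.MYC.ND, 90 cycling cells had 249 CPM of Phgdh and 1083 non-cycling cells 70.9 CPM, a log2 ratio, cycling over non-cycling, of 1.81 (1.54 to 2.08). Psat1 was 120 and 26.6 CPM (2.17, 1.75 to 2.60), Shmt2 91.6 and 18.9 CPM (2.28, 1.78 to 2.78), Asns 41.8 and 7.74 CPM (2.43, 1.66 to 3.23) and Psph 123 and 56.0 CPM (1.14, 0.78 to 1.49). The other enzymes measured were above 0 as well, so that 5 of 8 were called higher in cycling cells and 0 in non-cycling cells, where 10.0% and 14.5% of 11277 genes were, and the median over the 8 was 1.47 beside -0.09 over all genes. In the same lymphocytes Hsp90b1 was 512 CPM in cycling and 228 CPM in non-cycling cells (1.17, 1.00 to 1.34) and Creld2 44.1 and 18.6 CPM (1.25, 0.63 to 1.85), while Xbp1 was lower in cycling cells, at 28.3 and 65.6 CPM (-1.22, -1.88 to -0.61).

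Hepatocyte-lineage cells of NRAS.MYC.ND, 44 cycling and 252 non-cycling, had 5 of 8 enzymes called higher in cycling cells and 1, Pycr1 on 1 and 10 UMIs, in non-cycling cells, where 9.96% and 19.2% of 11002 genes were. The median was 1.40, beside -0.15 over all genes. Phgdh was 155 CPM in cycling and 53.7 CPM in non-cycling cells (1.53, 1.13 to 1.92), Psat1 147 and 55.4 CPM (1.41, 1.01 to 1.80) and Psph 81.3 and 27.7 CPM (1.55, 1.00 to 2.10). Of the other ATF4 members, Atf5 was called higher in cycling cells, at 174 CPM in cycling and 77.2 CPM in non-cycling cells (1.17, 0.82 to 1.52), and so was Nupr1 on 6 and 9 UMIs. Called higher in non-cycling cells were Ppp1r15a, Ddit4, Cebpb and, on 1 and 9 UMIs, Vldlr. Ppp1r15a was 23.9 CPM in cycling and 109 CPM in non-cycling cells (-2.19, -3.05 to -1.44), Ddit4 11.2 and 71.7 CPM (-2.68, -4.02 to -1.61) and Cebpb 233 and 488 CPM (-1.07, -1.33 to -0.82). The median over the whole ATF4 arm was 0.11. In the ER arm 0 of 18 members were called higher in cycling and 2 in non-cycling cells, Dnajb9 at 7.97 and 36.1 CPM (-2.18, -3.84 to -0.90) and Ern1 on 2 and 21 UMIs, and the median was 0.03.

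In duct-like cells of AKT1.MYC, 410 cycling and 1035 non-cycling, all 9 enzymes were above 0 with a median of 0.61 beside -0.10 over all genes, but 1 was called, Psat1 at 69.8 CPM in cycling and 25.3 CPM in non-cycling cells (1.46, 1.24 to 1.70), where 3.31% of 15360 genes were and 5.76% were higher in non-cycling cells. Phgdh was 140 and 92.2 CPM (0.61, 0.48 to 0.73) and Shmt2 47.2 and 25.0 CPM (0.92, 0.68 to 1.16). Phagocytes of AKT1.MYC, 179 cycling and 1671 non-cycling, had 36.9 and 14.7 CPM of Psat1 (1.33, 0.87 to 1.79) and 30.5 and 10.6 CPM of Shmt2 (1.52, 1.00 to 2.04), so that 2 of 8 enzymes were called higher in cycling and 1, Aldh18a1, in non-cycling phagocytes, where 5.01% and 7.31% of 12960 genes were. Phgdh there was 12.3 CPM in cycling and 19.8 CPM in non-cycling phagocytes (-0.68, -1.39 to -0.04), the levels at which free epithelial RNA was given above. In NRAS.MYC.ND phagocytes 4 of 8 enzymes were called higher in cycling cells and 0 in non-cycling cells, where 8.17% and 5.62% of 11940 genes were. Psat1 and Shmt2 were above 0 in cycling endothelial cells of both libraries, Psat1 at 19.4 and 4.91 CPM in AKT1.MYC (1.98, 0.62 to 3.51) and 12.1 and 3.35 CPM in NRAS.MYC.ND (1.85, 0.80 to 2.94). Of 8 enzymes, 1 was called higher in cycling and 0 in non-cycling endothelial cells of AKT1.MYC, where 5.35% and 6.95% of 10533 genes were, and 4 and 1 in NRAS.MYC.ND, where 5.11% and 4.85% of 12539 genes were. Cycling cells were deeper everywhere, with a median of 8212 UMIs in cycling and 2768 in non-cycling T, NK and ILC of NRAS.MYC.ND. The gap was widest in duct-like cells of AKT1.MYC, with medians of 27344.5 and 2585 UMIs. The split rests on detected genes, so depth enters it, and the part of depth was not tested.

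**Figure D4:**
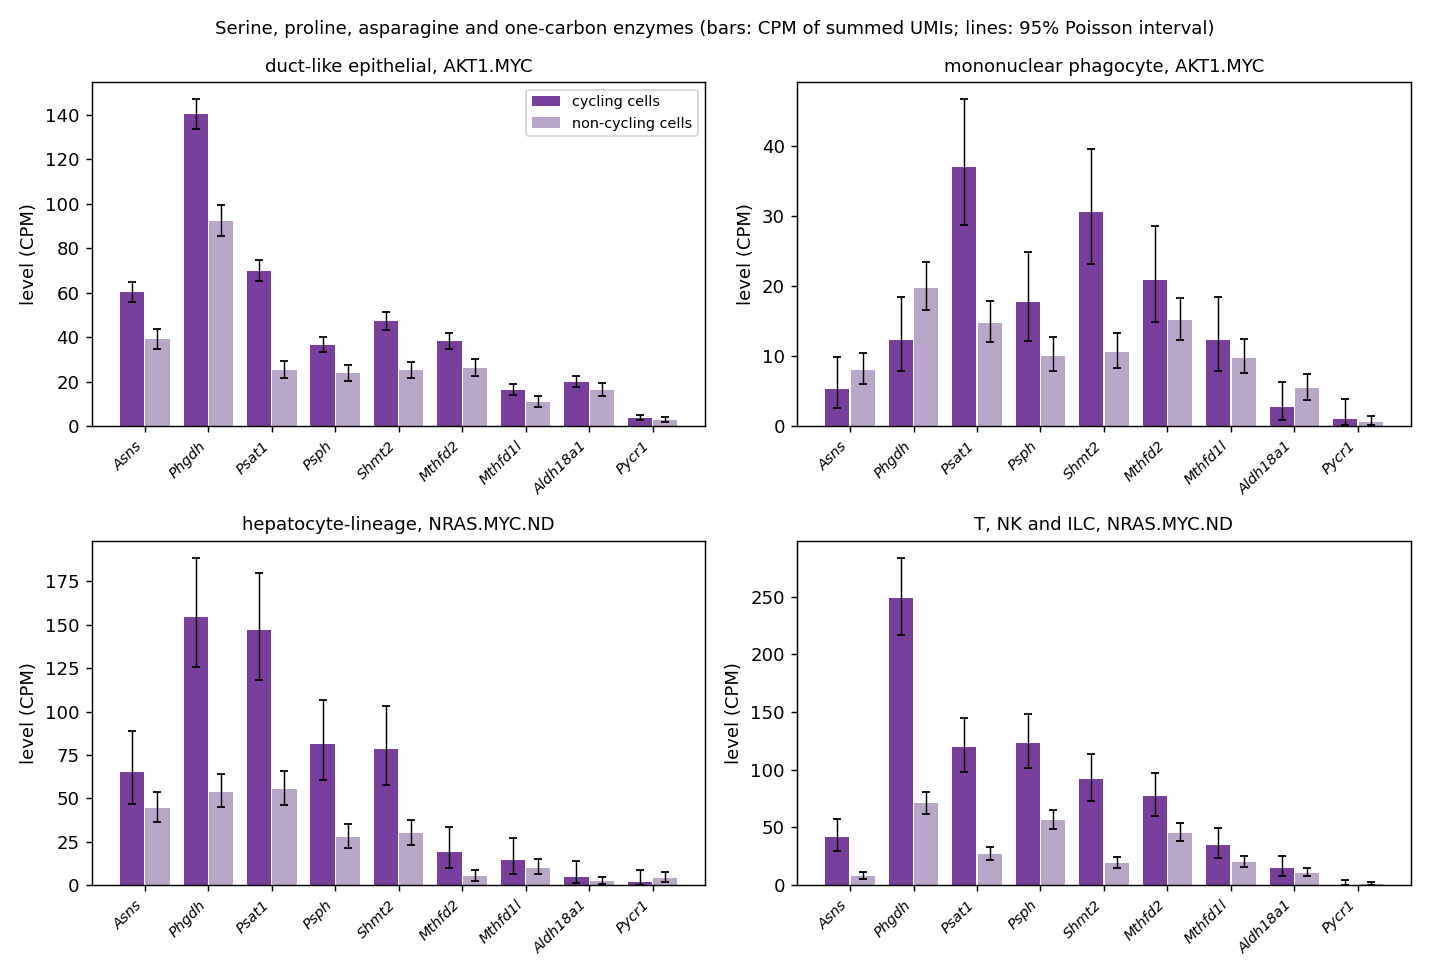
Level (CPM of summed UMIs) of the 9 amino acid and one-carbon enzymes in cycling cells (dark bars, left) and non-cycling cells (light bars, right) of 4 gates; lines are 95% Poisson intervals, which cover counting error only. Psat1 is higher in cycling cells in all 4 panels, at 120 CPM in cycling and 26.6 CPM in non-cycling T, NK and ILC of NRAS.MYC.ND, while Phgdh of AKT1.MYC phagocytes is not, at 12.3 and 19.8 CPM.

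Spread from cell to cell was set against counting error. After thinning every cell to 1000 UMIs, the median ratio of variance to mean over members with a UMI in at least 20 cells was 1.03 in duct-like cells of AKT1.MYC (33 members), 1.02 in phagocytes of AKT1.MYC (32 members) and 1.09 in phagocytes of NRAS.MYC.ND (22 members), where 1 is counting alone. It was higher in hepatocyte-lineage cells, at 1.29 in AKT1.MYC (6 members) and 1.14 in NRAS.MYC.ND (17 members). At this depth rare transcripts give a ratio near 1 in any case. Hspa5 in phagocytes of NRAS.MYC.ND reached 11.3 through the single cell described above. Cebpb was 2.10 in duct-like cells of AKT1.MYC, where 21.0% (19.0 to 23.1) of 1537 thinned cells had a UMI of it and 65.5% without thinning. Atf4 had a UMI in 16.4% (14.6 to 18.3) of those thinned cells, and Chac1, the member with the fewest counts there, had 47 UMIs in all 1869 cells of the gate.

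Other genes of the pathway, from lists of 32 further ATF4 targets and response genes, 18 serine and one-carbon genes and 43 ER genes, gave the following. Atf3, an ATF4 target that is also an early-response gene, was higher in AKT1.MYC with its interval past 2-fold in each compared gate other than neutrophils: it was 1684 CPM in AKT1.MYC and 352 CPM in NRAS.MYC.ND in hepatocyte-lineage cells (2.26, 2.14 to 2.37) and 2182 and 648 CPM in phagocytes (1.75, 1.71 to 1.79). Gpt2, the mitochondrial alanine aminotransferase, was 259 and 89.4 CPM in hepatocyte-lineage cells (1.54, 1.26 to 1.81) and 26.8 and 5.95 CPM in phagocytes (2.17, 1.79 to 2.58). Amino acid transporters split in the epithelial gate. Slc7a5 was 13.6 CPM in AKT1.MYC and 2.82 CPM in NRAS.MYC.ND (2.26, 1.55 to 3.08) and Slc1a5 26.0 and 9.53 CPM (1.45, 1.05 to 1.87), whereas Slc7a11 was 5.31 and 55.1 CPM (-3.38, -3.65 to -3.11).

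In the epithelial gate, 0 of the 18 listed serine and one-carbon genes were called higher in AKT1.MYC, beside 5 in NRAS.MYC.ND, against 15.8% and 14.1% of all genes. Gnmt, which methylates glycine, was 8.64 CPM in AKT1.MYC and 72.5 CPM in NRAS.MYC.ND (-3.07, -3.29 to -2.85), the serine dehydratase Sds 5.81 and 34.8 CPM (-2.58, -2.87 to -2.29) and Gldc, of the glycine cleavage system, 11.7 and 56.1 CPM (-2.26, -2.48 to -2.04). Not all genes of these steps did so, since Gcsh was 103 and 75.7 CPM (0.44, 0.30 to 0.59) and Sdsl, a relative of Sds, 34.1 and 34.4 CPM. Stc2, a secreted ATF4 target, stood out in endothelial cells at 34.8 and 2.84 CPM (3.62, 2.94 to 4.35), and Gdf15, a stress-induced cytokine, was higher in NRAS.MYC.ND phagocytes, at 157 CPM in AKT1.MYC and 340 CPM in NRAS.MYC.ND (-1.11, -1.19 to -1.03). Of the further ER genes measured in hepatocyte-lineage cells, 6 of 42 were called higher in AKT1.MYC, beside 1 in NRAS.MYC.ND, against 12.1% and 11.9% of all genes, with a median of 0.47 and 37 of 42 above 0.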

How the data were processed

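Tumour tissue of 2 groups was measured, 1 library each, and the authors deposited whole, unnormalized UMI counts by gene and barcode. The submitters' processing notes name Cell Ranger 6.1.2 and mm10, while the file headers name version 6.1.1, and neither gives the gene annotation.

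Barcodes under 500 UMIs or 250 genes, or over 20% mitochondrial UMIs, were left out. Scrublet in Scanpy 1.11.5 marked 0% of cells at its automatic threshold, so the highest scores up to 0.8% per 1000 barcodes were removed, 912 in AKT1.MYC, beside 327 in NRAS.MYC.ND. A cell entered a gate with UMIs of at least 3 markers of a type and a marker score at least 2 times the next, from 132 markers of 13 types (131 matched). UMIs were summed per gate and library. Intervals are exact Poisson for levels, exact conditional binomial for ratios (scipy 1.17.1) and exact Clopper-Pearson for shares. A count of 0 was given the limit of 3 counts, per library. Ratio steps were tested on simulated counts.

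Members and lists were chosen with earlier results of these data known. Members with at least 10 CPM in the hepatocyte-lineage or phagocyte gate, or elsewhere past 2-fold by interval or highest among gates, were to be given in full; non-members past 2-fold by interval, the 5 largest per list and gate. Members without values in the text are in the plots of levels and ratios. Promoter sequences are RefSeq's for GRCm38.p6; Atf6, Manf and Hyou1 are not among them. Alternatives covered the mitochondrial limit, depth minimum, doublets, gate settings, Leiden clusters (resolution 1.0), scaling, equal weight per cell, thinning, free RNA and the UMI minimum of members.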

Additional observations from a re-analysis of the deposited data

Results flagged for a closer look

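Mthfd1l was on opposite sides in different gates. Its log2 ratio, AKT1.MYC over NRAS.MYC.ND, was 1.08 in hepatocyte-lineage cells, 1.09 in mononuclear phagocytes and 1.37 in endothelial cells, and -1.93 in T, NK and ILC, where AKT1.MYC had 2 UMIs. Aldh18a1 was 2.01 in hepatocyte-lineage cells, on 7 UMIs in AKT1.MYC, beside 11 in NRAS.MYC.ND, and -1.46 in phagocytes. These differences between gates were not tested, since each group is 1 library.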

How the results depend on the processing

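No paired analysis was possible because each group is 1 library and the labels share no replicate number across separate samples; leaving out a library was not possible either. Among the arm medians of hepatocyte-lineage, phagocyte and endothelial cells, the ER median of hepatocyte-lineage cells turned from 0.54 to -0.39 with Leiden classes, and the ATF4 median of endothelial cells moved from 0.34 to -0.26 with cells thinned to 1000 UMIs; the cause was not tested. Over 13 alternatives each, the ATF4 median of phagocytes ranged from 0.32 to 0.69, the ER median of phagocytes from -0.25 to -0.13 and the ER median of endothelial cells from -0.43 to -0.25. That of the ATF4 arm in hepatocyte-lineage cells ranged from -0.13 to 0.44.

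Single called members turned sign with thinning in Shmt2, hepatocyte-lineage (-0.093), and Mthfd1l, mononuclear phagocyte (-0.066). With equal weight per cell, Mthfd1l, hepatocyte-lineage, did so (-0.027), with Leiden classes Ddit4, neutrophil (-0.064), and with no doublet removal Pdia4, neutrophil (-0.065). Without cells holding duct genes, a setting chosen after seeing the data, Cebpb, hepatocyte-lineage, stood at 0.012 and Cebpb, epithelial, at 0.43. Hepatocyte-lineage calls on Calr stayed past 2-fold in 6 of 13 alternatives, and those on Creld2 and Shmt2 in 7 of 13. Those on Manf did so in 12 of 13, on Nupr1 in 11 of 12 and on Mthfd2 in 12 of 12. Median of ratios scaling shifts all log2 ratios by -0.31 in neutrophils, -0.20 in the epithelial gate, 0.20 in T, NK and ILC, 0.13 in endothelial and -0.10 in hepatocyte-lineage cells. Depth limits the ratios of the T, NK and ILC, hepatocyte-lineage and neutrophil gates, with 311699, 621086 and 690143 UMIs in AKT1.MYC.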
